A study of Mus musculus with 66 samples.

Results

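Cholesterol synthesis was followed through 8 genes chosen by name, the enzyme genes Hmgcs1, Mvk, Mvd, Idi1, Fdps, Fdft1 and Sqle and the regulator gene Insig1, in C2C12 cells depleted of subunits of the Paf1 complex (Paf1C). In 3′READS, which sequences RNA 3′ ends and counts reads at each cleavage/polyadenylation site (pA site), 7 of the 8 genes were listed, with 23 of the 59578 pA sites and among 15856 genes. In RNA-seq, 6 of the 8 were listed among 9999 genes and 5 had reads. Mvk and Idi1 were measured by 3′READS only. Hmgcs1, which makes HMG-CoA at the start of the pathway, was listed in RNA-seq only, on an unplaced piece of chromosome 13, and had 0 reads in all 7 libraries. All 90 RNA-seq entries on such unplaced pieces were at 0, so Hmgcs1 gave no measurement.

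C2C12 is an established line of mouse skeletal myoblasts, the proliferating precursors of muscle fibers. The myoblasts received 50 nM siRNA for 48 h, either a control (siCtrl) or 1 siRNA each to Paf1, Cdc73 or Ski8, subunits of the complex that accompanies RNA polymerase II along genes. In both assays, siCtrl, siPaf1 and siCdc73 had 2 libraries each, 1 in batch 1 and 1 in batch 2, and siSki8 had 1 library, in batch 2. Ski8 stands in the tables as Wdr61, and nothing in the labels says whether the 2 batches were separate cultures, so p-values measure only the spread between these libraries. Because 1 siRNA was used per target and siSki8 had 1 library, every siSki8 value is a single measurement whose test borrows its spread from the other groups.

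The mevalonate pathway builds sterols from acetyl-CoA. Mvk and Mvd carry mevalonate toward isopentenyl diphosphate, Idi1 isomerizes that unit, Fdps joins such units into farnesyl diphosphate, Fdft1 condenses farnesyl diphosphate into squalene, and Sqle oxidizes squalene on the way to lanosterol. Most genes of the pathway are activated by the transcription factor SREBP-2 when membrane sterols are low. Insig1 holds the SREBP escort protein in the endoplasmic reticulum when sterols are high, and is itself an SREBP target.

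The sequences just before the main pA sites are given here because the reads of 3′READS report on these sites, and because those of Mvk differ in the results that follow. Each is the 30 bases ending at the pA site, 5′ to 3′ on the gene's strand, from mm9, with the polyadenylation hexamer AATAAA or ATTAAA in capitals where the window holds one.

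Mvk, intron 7 of 10, chr5:114903130-114903159, plus strand: cccttccccttgaagcgtggctgatctgca
Mvk, distal site, chr5:114913722-114913751, plus strand: atataataAATAAAtctttttttgtttgtt
Mvd, last exon, chr8:124957501-124957530, minus strand: accacaggAATAAAgtgtgctgttcctgcc
Fdps, gene end, chr3:88897510-88897539, minus strand: gagggggtctcAATAAAttattgttcaaca
Fdft1, last exon, chr14:63765207-63765236, minus strand: gtccttgtctttctcatgagtttgacagtg
Sqle, last exon, chr15:59162713-59162742, plus strand: ttgggacaagccAATAAAatgaagagtgaa
Insig1, gene end, chr5:28405173-28405202, plus strand: ttttttacttttATTAAAggttcaaaacca

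Sqle, Fdps and Mvd each had a single listed pA site, with 17612, 2693 and 247 reads over the 7 libraries. The leading site of Insig1 held 99.2% of the reads of its gene. The leading Fdft1 site, with 128 reads and 50.0% of its gene, has neither hexamer in the window, and nor does the intronic Mvk site. The leading Idi1 site, whose window is not shown, has neither as well, with 187 reads and 94.4% of its gene. Among all listed sites, 53.6% of the 38550 sites of 3′-most exons and 55.6% of the 16766 intronic sites had either hexamer in a window of the same length, so a window without one is common.

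Total reads ranged from 5302728 to 14340927 in 3′READS and from 2796693 to 8160386 in RNA-seq. Counts per 1000000 reads, scaled by TMM (CPM), showed each target lowest in its own knockdown. In RNA-seq, Paf1 was at 107 and 160 CPM in siCtrl and 20.3 and 31.1 in siPaf1, Cdc73 at 109 and 98.4 in siCtrl and 14.2 and 22.0 in siCdc73, and Wdr61 at 49.8 and 129 in siCtrl and 5.97 in siSki8. The siPaf1 library of batch 2 in 3′READS stood apart, with 68 of 12579 genes more than 20-fold above every other library after 0.5 CPM was added. None of the 68 was a cholesterol synthesis gene, and the other libraries had 0 such genes. Summed over 6 myoblast markers, the libraries held 842 to 1972 CPM in 3′READS, and over the 4 of them listed in RNA-seq 1617 to 3618 CPM. The hepatocyte markers Alb and Ttr were at 0 in RNA-seq. As these were bulk libraries, fewer cells of a type and less RNA per cell cannot be told apart.

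Levels between genes were compared per length, with the RPKM values of the authors (reads per kilobase of coding region and 1000000 mapped reads). In siCtrl, Sqle stood highest, at 109 ± 55.6 RPKM (SD, n = 2), followed by Fdft1 at 39.6 ± 4.30, Fdps at 31.9 ± 16.3, Insig1 at 19.6 ± 5.61 and Mvd at 5.98 ± 1.01. The 2 siCtrl values of Fdps overlapped those of Fdft1 and of Insig1, whereas Sqle was above Fdft1 and Insig1 above Mvd in both batches. In siSki8 the order of Fdft1 and Fdps was the other way round, with Fdps at 102 RPKM and Fdft1 at 76.4. Fdps was also above Fdft1 in the batch 2 libraries of siCtrl (43.4 against 42.6) and siCdc73 (38.2 against 32.0). It was below Fdft1 in siPaf1 of batch 2 (35.2 against 38.7) and in every batch 1 library. Summed over the 5 genes, RNA-seq levels were 513 and 1001 CPM in siCtrl, 474 and 656 in siPaf1, 627 and 1093 in siCdc73 and 1929 in siSki8, and summed over the 7 genes in 3′READS they were 385 and 479, 337 and 446, 469 and 579, and 774. Within a group, values are given for batch 1 and then batch 2 throughout. The siSki8 library held the highest sum in both assays.

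**Figure D1:**
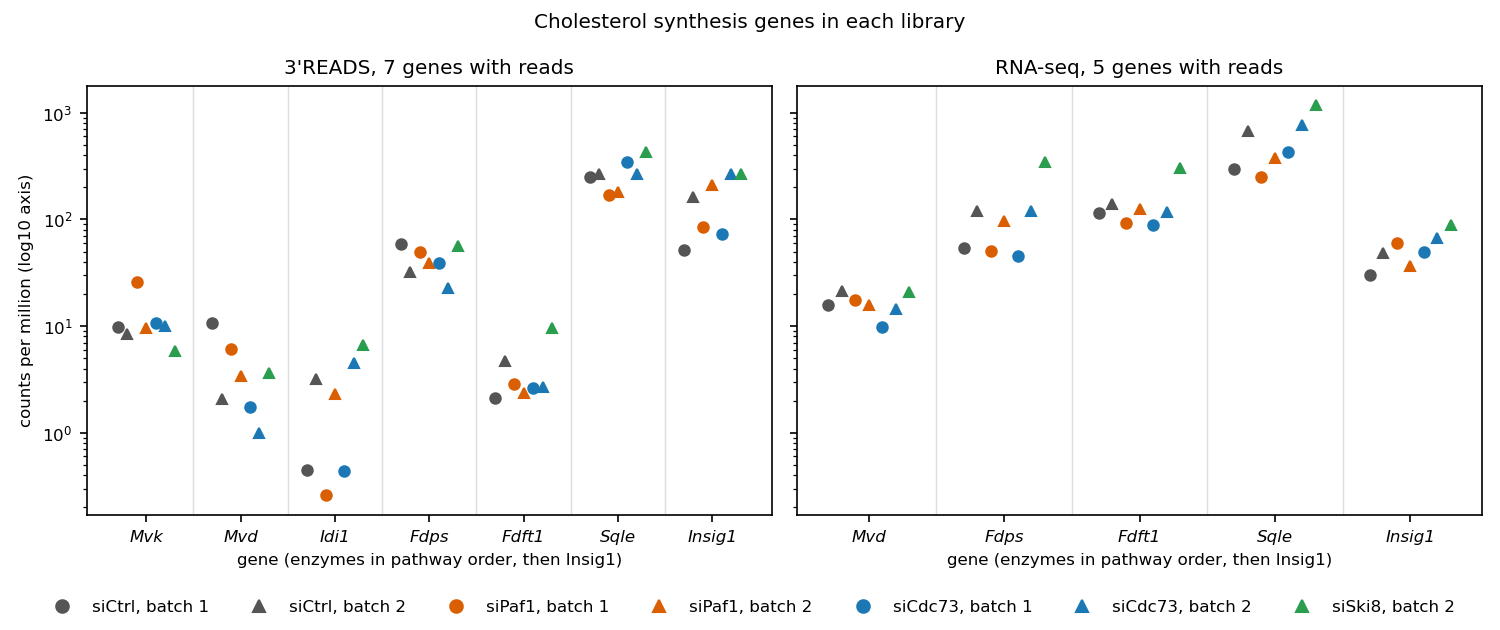
CPM of each cholesterol synthesis gene in each library, 3′READS and RNA-seq, on log axes, with the groups siCtrl, siPaf1, siCdc73 and siSki8 side by side and 1 point per library marked by batch. In RNA-seq the siSki8 point of Fdps (346 CPM) and of Sqle (1170 CPM) lies above all other libraries, and Insig1 and Idi1 differ between batches by more than between groups in 3′READS.

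Depletion of Ski8 was the comparison in which the squalene-forming enzymes stood highest. In RNA-seq the siSki8 library had the highest level of Fdps, Fdft1, Sqle and Insig1 among the 7 libraries, against 16.5% of all 6521 tested genes for which it did so, and Mvd was within the siCtrl range. Fdps, the farnesyl diphosphate synthase, was at 53.8 and 121 CPM in siCtrl, 50.6 and 97.4 in siPaf1, 45.5 and 119 in siCdc73 and 346 in siSki8. Fdft1, the squalene synthase, was at 114 and 140 CPM in siCtrl, 93.0 and 126 in siPaf1, 89.6 and 117 in siCdc73 and 304 in siSki8. Both genes were at about the same level in the other 3 groups, whose ranges overlapped. Sqle, the squalene epoxidase, was at 299 and 670 CPM in siCtrl, 252 and 380 in siPaf1, 432 and 776 in siCdc73 and 1170 in siSki8. Insig1 was at 30.3 and 48.3 CPM in siCtrl, 60.7 and 36.6 in siPaf1, 50.0 and 66.4 in siCdc73 and 88.2 in siSki8. For Sqle and Insig1, the single siSki8 value lay above both siCtrl values, as follows from its being the highest of the 7 libraries. The share of all genes with siSki8 outside the siCtrl range was not counted.

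In edgeR's quasi-likelihood test with no batch term, and with p adjusted over all genes by the Benjamini-Hochberg method, 0 of the 5 genes passed an adjusted p of 0.05 in siSki8 (0% of all genes rose), 2 had an unadjusted p under 0.05 (Fdps and Fdft1), and DESeq2 also called 0. With the batch as a replicate block, 3 of the 5 rose by the same test, against 2.93% of all genes. These were Fdps, by 1.52 on the log2 scale (SE 0.293, adjusted p = 0.00188), Fdft1, by 1.08 (SE 0.289, adjusted p = 0.0258), and Sqle, by 0.94 (SE 0.277, adjusted p = 0.0422), in edgeR's test. Insig1 came next with a log2 change of 1.11 and an edgeR adjusted p of 0.0528, and Mvd had 0.05 (adjusted p = 0.967). Set against the siCtrl library of its own batch alone, siSki8 was higher by 1.51 (Fdps), 1.12 (Fdft1), 0.80 (Sqle) and 0.87 (Insig1) on the log2 scale.

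The Fdps call was met in 10 of 11 fits with the block, with edgeR or DESeq2 adjusted p from 4.12e-07 to 0.0608, that of Fdft1 in 6 (0.00022 to 0.279) and that of Sqle in 5 (0.00125 to 0.238). Without siCtrl replicate 1, siCdc73 replicate 1 or siCdc73 replicate 2, only Fdps passed edgeR's test with the block (log2 change 1.49, 1.54 and 1.56). Without siCtrl replicate 2, the one siCtrl library that shares the batch of siSki8, only Insig1 passed (log2 change 1.68, edgeR adjusted p = 0.0467). Markers of other cells moved in the same library. The 3 listed adipocyte markers summed to 140 CPM in siSki8 against 48.2 and 70.5 in siCtrl and 16.8 to 50.1 in the other 4 libraries. Nearly all of this was Pparg, at 136.5 CPM, which rose (log2 change 1.17, edgeR adjusted p = 0.0299), while Cebpa was at 3.93 CPM, within its siCtrl range of 2.36 to 6.43, and Plin1 was at 0. The 2 listed epithelial markers summed to 8.30 CPM against 0.140 and 1.01 in siCtrl, and the myoblast markers to their highest sum of all libraries, 3618 CPM. In 3′READS the adipocyte sum in siSki8 was 3.30 CPM against 3.60 and 3.69 in siCtrl, the epithelial sum 1.25 against 0.600 and 0.0945, and the myoblast sum 1259 against 1850 and 1609, and the endothelial marker Kdr fell by 4.00 on the log2 scale (edgeR adjusted p = 0.0275, with the block). The siSki8 library also had the most reads of the RNA-seq libraries. Their part in the siSki8 values was not tested.

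In 3′READS the same genes leaned the same way without passing. Fdft1 was at 2.10 and 4.73 CPM in siCtrl, 2.84 and 2.38 in siPaf1, 2.61 and 2.70 in siCdc73 and 9.56 in siSki8. Sqle was at 251 and 267 CPM in siCtrl, 169 and 179 in siPaf1, 343 and 269 in siCdc73 and 424 in siSki8. Fdps was at 59.0 and 32.1 CPM in siCtrl, 49.1 and 39.2 in siPaf1, 38.7 and 22.6 in siCdc73 and 56.0 in siSki8, which lies within the siCtrl range. The siSki8 library was the highest of the 7 for Fdft1, Sqle and Idi1, which is 3 of 7 genes against 14.2% of all genes, and the lowest for Mvk (12.8% of all genes).

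Of the 7 genes, 0 were called in siSki8 by edgeR's test in 3′READS (0% of all genes rose) and 0 had an unadjusted p under 0.05, with 0 called by DESeq2. With the block 0 of 7 were called, 3 had an unadjusted p under 0.05, and 0.0795% of all genes rose. The log2 changes with the block were 1.34 (SE 0.62) for Fdft1, 0.96 (SE 0.761) for Idi1, 0.74 (SE 0.344) for Insig1, 0.74 (SE 0.338) for Sqle, 0.69 (SE 0.357) for Fdps, 0.20 (SE 0.701) for Mvd and −0.37 (SE 0.511) for Mvk. The median over the 7 was 0.74, beside −0.05 over all 12579 genes tested, and in RNA-seq the median over the 5 was 1.08 beside 0.02.

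**Figure D2:**
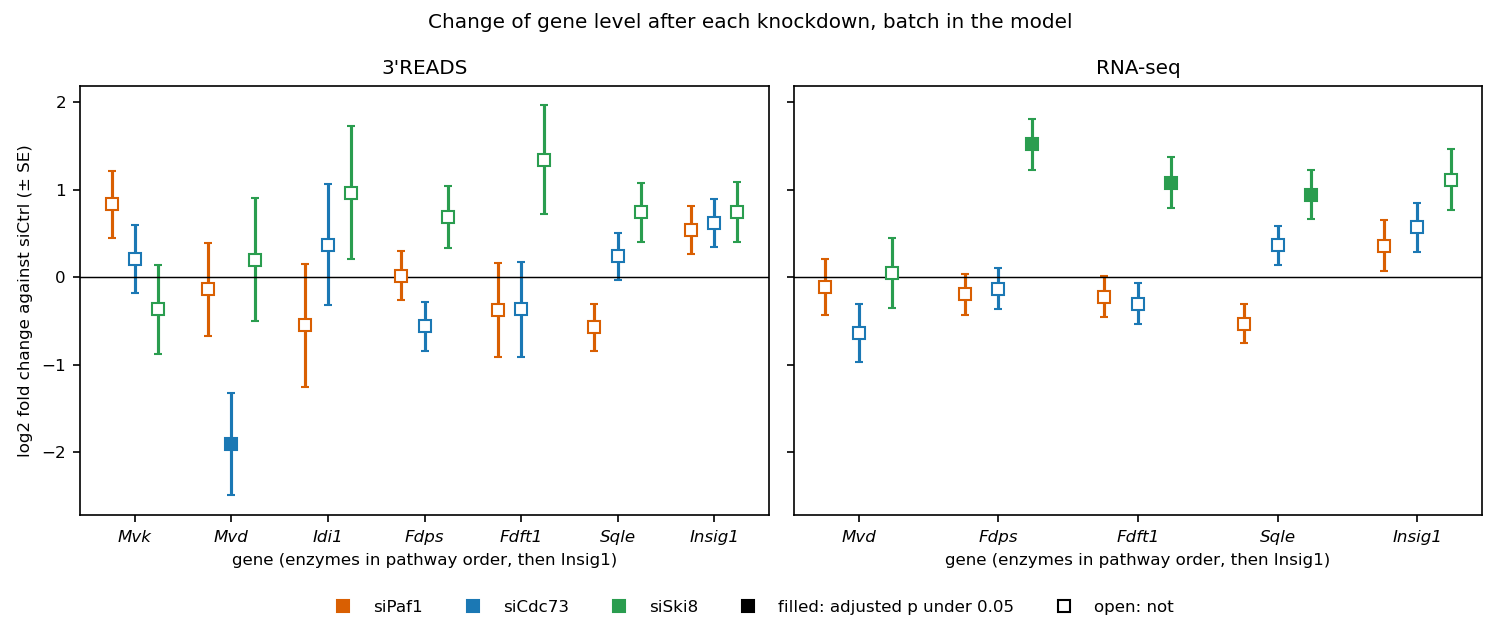
Log2 fold change against siCtrl with the batch as a block, for each gene (enzymes in pathway order, then Insig1), in 3′READS and RNA-seq, with 1 square per knockdown, bars for ± SE, and filled squares for an adjusted p under 0.05. The siSki8 squares of Fdps, Fdft1 and Sqle in RNA-seq lie at 1.52, 1.08 and 0.94 and the siCdc73 square of Mvd in 3′READS at −1.91, and these 4 are the filled ones.

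Depletion of Cdc73 gave 1 call of gene level, counted over all sites, in edgeR's test with the block. It was at Mvd, the decarboxylase that forms isopentenyl diphosphate. Mvd was at 10.8 and 2.08 CPM in siCtrl, 6.07 and 3.44 in siPaf1, 1.74 and 0.994 in siCdc73 and 3.64 in siSki8 in 3′READS. Both siCdc73 libraries were below both siCtrl libraries (1 of 7 genes against 23.7% of all genes), but the siCtrl libraries themselves lay far apart. Mvk and Sqle were above siCtrl in both (2 of 7 against 22.8%). The siCdc73 values rest on 8 and 14 reads.

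By edgeR's test without a batch term, 0 of 7 genes were called in siCdc73 (0% of all genes fell), 1 had an unadjusted p under 0.05 (Mvd), and DESeq2 called 0. With the block, Mvd fell by 1.91 on the log2 scale (SE 0.585, edgeR adjusted p = 0.0279, 0.00583 to 0.827 over the alternatives), 1 of 7 genes against 11.8% of all genes that fell (10.8% rose). Within batches its log2 difference was −2.56 and −1.05. The call was lost without siCtrl replicate 1 and without siCdc73 replicate 1, and in DESeq2 with the block. In RNA-seq Mvd was at 15.8 and 21.2 CPM in siCtrl, 17.5 and 15.7 in siPaf1, 9.75 and 14.4 in siCdc73 and 20.8 in siSki8. Both siCdc73 libraries were again below siCtrl (1 of 5 genes against 26.3%), with a log2 change of −0.63 (SE 0.328) and an edgeR adjusted p of 0.121 with the block.

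Insig1, the sterol sensor partner, was at 51.9 and 162 CPM in siCtrl, 84.0 and 210 in siPaf1, 72.3 and 269 in siCdc73 and 268 in siSki8 in 3′READS. It was higher in batch 2 in each group that had both batches, so that the groups overlapped although siCdc73 was above siCtrl within each batch, by 0.48 and 0.73 on the log2 scale. Its change in siCdc73 with the block was 0.62 (SE 0.274, edgeR adjusted p = 0.123), and it passed without either siPaf1 library and in DESeq2 with the block (log2 change 0.65, adjusted p = 0.0483). In RNA-seq, where both siCdc73 libraries lay above both siCtrl libraries (1 of 5 genes against 24.9%), its change was 0.57 (SE 0.284, edgeR adjusted p = 0.109).

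In RNA-seq 0 of the 5 genes were called in siCdc73 by edgeR's test, with or without the block (19.4% of all genes rose and 20.5% fell with it), 0 had an unadjusted p under 0.05 in either, and DESeq2 without the block called 0. Without siPaf1 replicate 1 the block gave 2 calls, Sqle (log2 change 0.39) and Insig1 (0.61). The 2 libraries of siCdc73 differed from siCtrl in other markers too. The epithelial markers summed to 10.6 and 16.8 CPM in 3′READS against 0.600 and 0.0945 in siCtrl, and to 19.4 and 61.9 against 0.140 and 1.01 in RNA-seq, most of it Krt8, which rose by 7.34 and 6.13 on the log2 scale (edgeR adjusted p = 0.000161 and 3.57e-10, with the block). The myoblast markers summed to 1326 and 842 CPM in 3′READS against 1850 and 1609, and to 1617 and 1953 against 2106 and 2924 in RNA-seq. Markers of differentiated muscle summed to 32.1 and 88.1 CPM in 3′READS against 89.9 and 114.5, and to 10.5 and 42.1 against 13.4 and 44.2 in RNA-seq. In 3′READS Cdh15 fell by 1.87, Myog by 1.64, Myh3 by 1.39 and Kdr by 2.46, called by edgeR's test with the block. Their part in the siCdc73 values was not tested.

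Depletion of Paf1 changed the level of none of these genes, counted over all their sites, past the test. Sqle came closest, with both siPaf1 libraries below both siCtrl libraries in 3′READS (1 of 7 genes against 21.1% of all genes). Its log2 change with the block was −0.57 (SE 0.269, edgeR adjusted p = 0.151) in 3′READS and −0.53 (SE 0.224, edgeR adjusted p = 0.0666) in RNA-seq, where the groups overlapped. By edgeR's test 0 of 7 genes in 3′READS and 0 of 5 in RNA-seq were called without the block, 0 and 0 had an unadjusted p under 0.05, and DESeq2 called 0 and 0. With the block the counts were again 0 and 0, with 1 gene each at an unadjusted p under 0.05 (Mvk and Sqle), while 9.74% and 16.3% of all genes rose and 9.08% and 16.2% fell. Without siPaf1 replicate 1, Sqle passed in RNA-seq with the block (log2 change −0.72, edgeR adjusted p = 0.00745). Without siPaf1 replicate 2, Insig1 passed in RNA-seq with the block (0.93, adjusted p = 0.00497) and Mvk in 3′READS (1.44, adjusted p = 0.0103). The median log2 change with the block was −0.14 over the 7 genes in 3′READS, beside 0.08 over all genes, and −0.20 over the 5 in RNA-seq, beside 0.02.

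Marker genes moved in siPaf1 as well, with the block. Pparg fell by 2.03 in RNA-seq (edgeR adjusted p = 2.43e-06), and the adipocyte markers summed to 20.9 and 16.8 CPM against 48.2 and 70.5 in siCtrl, but to 5.03 and 2.65 against 3.60 and 3.69 in 3′READS. Among markers of differentiated muscle, Acta1 and Tnnt3 rose by 1.63 and 1.70 in 3′READS and Tnnt3 by 1.78 in RNA-seq, and the list summed to 119.9 and 285.9 CPM in 3′READS against 89.9 and 114.5 in siCtrl, and to 17.0 and 66.3 against 13.4 and 44.2 in RNA-seq. Called myoblast markers went both ways. Cdh15, a myoblast cadherin, fell by 1.08 in 3′READS and 0.93 in RNA-seq, and Itga7 fell by 0.89 in 3′READS. Des rose by 0.71 in RNA-seq. The endothelial marker Kdr fell by 1.78 in 3′READS. The myoblast sums were 1972 and 1804 CPM in 3′READS, and 2221 and 2992 in RNA-seq. The part of these markers in the siPaf1 values, those of the gene lists included, was not tested.

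Idi1, the isopentenyl diphosphate isomerase, had few reads and followed the batch. It was at 0.450 and 3.21 CPM in siCtrl, 0.258 and 2.32 in siPaf1, 0.434 and 4.54 in siCdc73 and 6.60 in siSki8. Batch 1 libraries held 2 or 3 reads each, so that no difference between groups was detectable there at this depth.

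All 3 knockdowns were set against the same siCtrl libraries, so the knockdowns were also compared directly, with the block. Sqle was lower in siPaf1 than in siCdc73 in RNA-seq, with a log2 difference of −0.90 (SE 0.224, edgeR adjusted p = 0.00363, 13.6% of all genes lower), and lower in siPaf1 than in siSki8 in both assays, with −1.31 (SE 0.336, edgeR adjusted p = 0.0178) in 3′READS and −1.48 (SE 0.283, edgeR adjusted p = 0.000228) in RNA-seq, where 6.30% and 15.4% of all genes were lower. Fdps was lower in siCdc73 than in siSki8 in both assays, with −1.25 (SE 0.354, edgeR adjusted p = 0.0350) and −1.65 (SE 0.292, edgeR adjusted p = 9.33e-05), as were 5.63% and 16.0% of all genes. In RNA-seq Fdps and Fdft1 were lower in siPaf1 than in siSki8, with −1.71 and −1.30, and Fdft1 was lower in siCdc73 than in siSki8, with −1.38 (edgeR adjusted p = 7.10e-05, 0.00106 and 0.000594). Without the block 0 of these 8 direct contrasts passed in edgeR's test or in DESeq2, and 6 had an unadjusted p under 0.05.

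Mvk, the mevalonate kinase, was the one of these genes whose choice of transcript end passed a test. In siCtrl, many of its reads ended in intron 7, at chr5:114903159 (plus strand, mm9), after 58.4% of the coding sequence, so that a transcript ending there lacks the remainder of the coding exons. In each knockdown, most reads ended at the distal site at chr5:114913751, which lies 3151 bases past the nearest annotated transcript end of the gene (chr5:114894278-114910600). The next annotated gene on the plus strand, Gm13790, starts 90698 bases after the end of Mvk. The intronic position lies 1 base from the annotated end of a Mvk transcript that retains the intron. Of the windows given for these sites, the distal one holds AATAAA and the intronic one neither hexamer.

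The intronic site had 47 and 27 reads in siCtrl, 6 and 1 in siPaf1, 5 and 3 in siCdc73 and 6 in siSki8. The distal site had 17 and 46 reads in siCtrl, 195 and 142 in siPaf1, 44 and 136 in siCdc73 and 41 in siSki8. Counted over all Mvk sites, reads upstream of the last exon made up 73.9% (95% Wilson interval 62.1 to 83.0) and 47.8% (37.8 to 58.0) in siCtrl. The share was 2.99% (1.38 to 6.36) and 0.690% (0.122 to 3.80) in siPaf1, 10.2% (4.44 to 21.8) and 2.11% (0.721 to 6.03) in siCdc73, and 13.7% (6.81 to 25.7) in siSki8. All knockdown libraries lay below both siCtrl libraries and their intervals did not reach those of siCtrl. The intervals cover counting error only. The share of all genes whose upstream reads separate in this way was not counted.

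The ratio of upstream to last-exon reads (CDS-APA) was tested by edgeR's quasi-likelihood interaction of site class and group over 1766 genes, from sites with at least 5% of the reads of a gene. It fell by 6.03 on the log2 scale in siPaf1 (SE 1.35, adjusted p = 0.0489, 4.81e-09 to 0.164 over the alternatives), and Mvk was 1 of only 3 genes (0.170%) whose ratio fell there, beside 39 (2.21%) whose ratio rose. With the block the fall was 6.36 (SE 1.01, edgeR adjusted p = 1.32e-08), 1 of 72 genes (4.08%). In siCdc73 the log2 change was −4.57 (SE 1.33, edgeR adjusted p = 0.0957, 1.64e-05 to 0.294 over the alternatives), where the ratio of 0.113% of the genes fell, and with the block the ratio fell by 4.61 (SE 0.96, edgeR adjusted p = 2.95e-05), 1 of 49 genes (2.77%). In siSki8 it was −3.08 (SE 1.58, edgeR adjusted p = 1) and with the block −2.01 (SE 1.26, adjusted p = 0.973), where 0% and 0.0566% of the genes fell. The median over all genes was 0.72, 0.98 and −0.25 for the 3 knockdowns without the block. Mvk lay below the median in all 3, and on the other side of 0 from it for siPaf1 and siCdc73.

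Within batches, the log2 ratio of the intronic to the distal site differed from that of siCtrl by −6.35 and −5.81 in siPaf1, −4.46 and −4.53 in siCdc73 and −1.92 in siSki8, with 0.5 reads added to each count. The siPaf1 call without the block was lost without siCtrl replicate 1 (−4.93), siCtrl replicate 2 (−7.15), siPaf1 replicate 2 (−5.33) or siCdc73 replicate 2 (−6.02), and with no minimum share (−6.41), each time with the same sign. Set directly against each other with the block, siPaf1 lay below siSki8, with a log2 difference of −4.35 (SE 1.47, edgeR adjusted p = 0.0301, 1.64% of the genes lower), while siCdc73 and siSki8 differed by −2.60 (SE 1.37, edgeR adjusted p = 0.223). Of the 7 sites of these genes that could be tested 1 by 1 against the other sites of their gene, 0 were called without the block for siPaf1 or siCdc73, 2 had an unadjusted p under 0.05 in each (0.0429% and 0.0858% of all sites were called), and both Mvk sites were called in each with the block (8.79% and 7.40% of all sites). In siSki8 0 of the 7 were called, with or without the block, and 0 had an unadjusted p under 0.05 (0.0674% of all sites were called with it). Mvk had only 2 sites in this test, each set against the other, so the 2 Mvk calls are 1 result with opposite signs. That result rests on the same reads as the CDS-APA ratio of Mvk. DESeq2 was not run on sites.

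**Figure D3:**
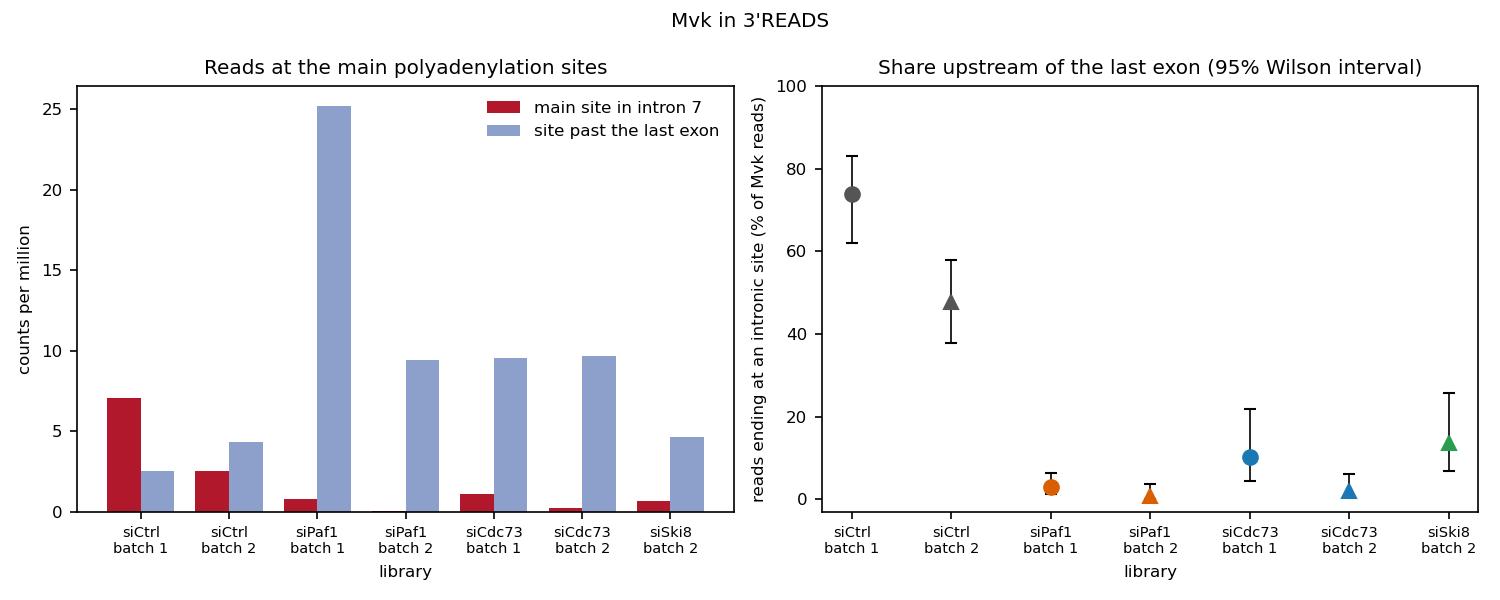
Left, CPM at the main intronic and at the distal Mvk site in each 3′READS library, as bars. Right, percent of Mvk reads that end upstream of the last exon in each library, as points with 95% Wilson intervals. The siCtrl libraries lie at 73.9% and 47.8% and every knockdown library at 13.7% or below.

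Because the sites moved against each other, the level of Mvk depended on which sites were summed. Summed over all sites, Mvk was at 9.75 and 8.51 CPM in siCtrl, 25.9 and 9.59 in siPaf1, 10.6 and 10.1 in siCdc73 and 5.80 in siSki8. Its log2 change with the block was 0.83 (SE 0.384, edgeR adjusted p = 0.142) in siPaf1, 0.21 (SE 0.386, adjusted p = 0.752) in siCdc73 and −0.37 in siSki8. From sites of the 3′-most exon alone, it rose by 2.21 (SE 0.478, edgeR adjusted p = 0.0045) in siPaf1 and by 1.48 (SE 0.47, adjusted p = 0.0329) in siCdc73 with the block, while siSki8 had 0.59 (SE 0.594, adjusted p = 0.788). Without the block the changes were 2.33 and 1.52 (edgeR adjusted p = 0.264 and 0.335). At the distal site itself there were 2.55 and 4.35 CPM in siCtrl, 25.2 and 9.40 in siPaf1, 9.55 and 9.66 in siCdc73 and 4.67 in siSki8.

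The other genes gave little room for site choice. Fdps, Mvd and Sqle have 1 listed site. Insig1 has a minor site 1718 bases before the annotated gene end, with 98 of its reads and 0.0585% to 5.71% of the gene in a library. Fdft1 has 11 listed sites for 256 reads, and Idi1 has 2 for 198. The ratio of their 2 leading sites within the last exon (3′UTR-APA, 4567 genes) was called in 0 of the 3 knockdowns by edgeR's test, with or without the block, and 0 had an unadjusted p under 0.05 (with the block 6.79%, 4.29% and 0.307% of the genes were called in siPaf1, siCdc73 and siSki8). The SEs were 1.43 to 2.53 on the log2 scale, so that at this depth only very large shifts could have been seen.

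The remainder of the pathway was read from lists of named genes. Of 14 other cholesterol synthesis enzymes, 14 were tested in 3′READS and 6 in RNA-seq. In siSki8 in RNA-seq with the block, 1 of the 6 rose (2.93% of all genes), Cyp51, the lanosterol demethylase, by 1.59 (SE 0.276, edgeR adjusted p = 0.000741), and it was at 514 and 269 CPM in siCtrl, 338 and 201 in siPaf1, 561 and 288 in siCdc73 and 826 in siSki8. In 3′READS 12 of the 14 had a log2 change above 0 in siSki8, with a median of 0.69 beside −0.05 over all genes, but edgeR's test with the block called 0 of 14, with 5 at an unadjusted p under 0.05 and 0 called by DESeq2 with the block.

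In the same list, 2 of 14 genes fell in siPaf1 in 3′READS with the block (9.08% of all genes), Sc5d by 1.47 and Sc4mol by 1.04 on the log2 scale, and 2 of 14 in siCdc73 (11.8%), Nsdhl by 2.14 and Sc4mol by 1.25. These counts are near the share of all genes. These 3 genes act on sterol intermediates after lanosterol. In RNA-seq Lbr fell in siPaf1 by 1.28 and in siCdc73 by 0.97, and Pmvk, the kinase between Mvk and Mvd, fell in siPaf1 by 0.81, whereas Tm7sf2 rose in siPaf1 by 1.06 and in siCdc73 by 1.09. In RNA-seq 2 of 6 genes fell and 1 rose in siPaf1 (16.2% and 16.3% of all genes), and 1 fell and 1 rose in siCdc73 (20.5% and 19.4%). Lbr and Tm7sf2 encode the sterol C14 reductases. The list therefore moved in both directions in siPaf1 and siCdc73, with medians of −0.72 and −0.44 in 3′READS and −0.78 and −0.19 in RNA-seq.

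Among 6 genes of SREBP control, Srebf1, which encodes SREBP-1, fell in siPaf1 and siCdc73 in both assays with the block, by 1.36 and 1.87 in 3′READS and by 0.86 and 1.24 in RNA-seq, and it was the only gene of this list called against siCtrl, 1 of 6 in 3′READS and 1 of 5 in RNA-seq, while 9.08% to 20.5% of all genes fell in these 4 comparisons. The list of sterol uptake and transport had 7 genes in 3′READS and 3 in RNA-seq. In siPaf1 in 3′READS, where 9.08% of all genes fell, Stard4, which encodes a carrier of sterols between membranes, was among those that fell, by 1.71. In siPaf1 in RNA-seq all 3 genes fell, beside 16.2% of all genes. Among them were Npc1, which exports cholesterol from lysosomes, by 0.89, and Scarb1, a receptor for HDL, by 1.47. Genes of this list also fell in siCdc73 in both assays, where 11.8% and 20.5% of all genes fell.

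Fatty acid synthesis, which shares the SREBP regulators, had 11 genes. In siPaf1 with the block 5 of 11 fell in 3′READS (Scd1, Elovl6, Elovl5, Fads1 and Acaca, by 1.01 to 1.90), beside 9.08% of all genes, and 5 of 8 in RNA-seq (Fads2, Elovl6, Acss2, Scd1 and Elovl5, by 0.96 to 1.68), beside 16.2%, and none rose. In siCdc73 2 of 11 fell and 1 rose in 3′READS (11.8% and 10.8% of all genes), and 4 of 8 fell and 1 rose in RNA-seq (20.5% and 19.4%). The gene that rose in both was Acly, ATP citrate lyase. Among 8 genes of other isoprenoid branches, Coq2, of ubiquinone synthesis, fell in siPaf1 and siCdc73 in both assays, by 0.79 to 1.99. Fntb fell in siCdc73 and Ggps1 rose in siPaf1 in RNA-seq, where 5 genes of this list were listed. In these comparisons 9.08% to 20.5% of all genes fell, and 16.3% rose in siPaf1 in RNA-seq. Of 5 LXR targets and sterol efflux genes, Nr1h3 rose in siCdc73 in RNA-seq by 1.90 (19.4% of all genes rose), on the 1 gene of the list tested there. Adjusted p-values of these calls ranged from 3.32e-06 to 0.0468 in edgeR's test. Without the block, edgeR's test called 0 of the 51 genes of these 6 lists tested in 3′READS and 0 of the 28 in RNA-seq. In siPaf1, siCdc73 and siSki8, 9, 7 and 1 of them had an unadjusted p under 0.05 in 3′READS and 6, 6 and 1 in RNA-seq, and DESeq2 without the block called 2, 3 and 0, and 2, 1 and 0.

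**Figure D4:**
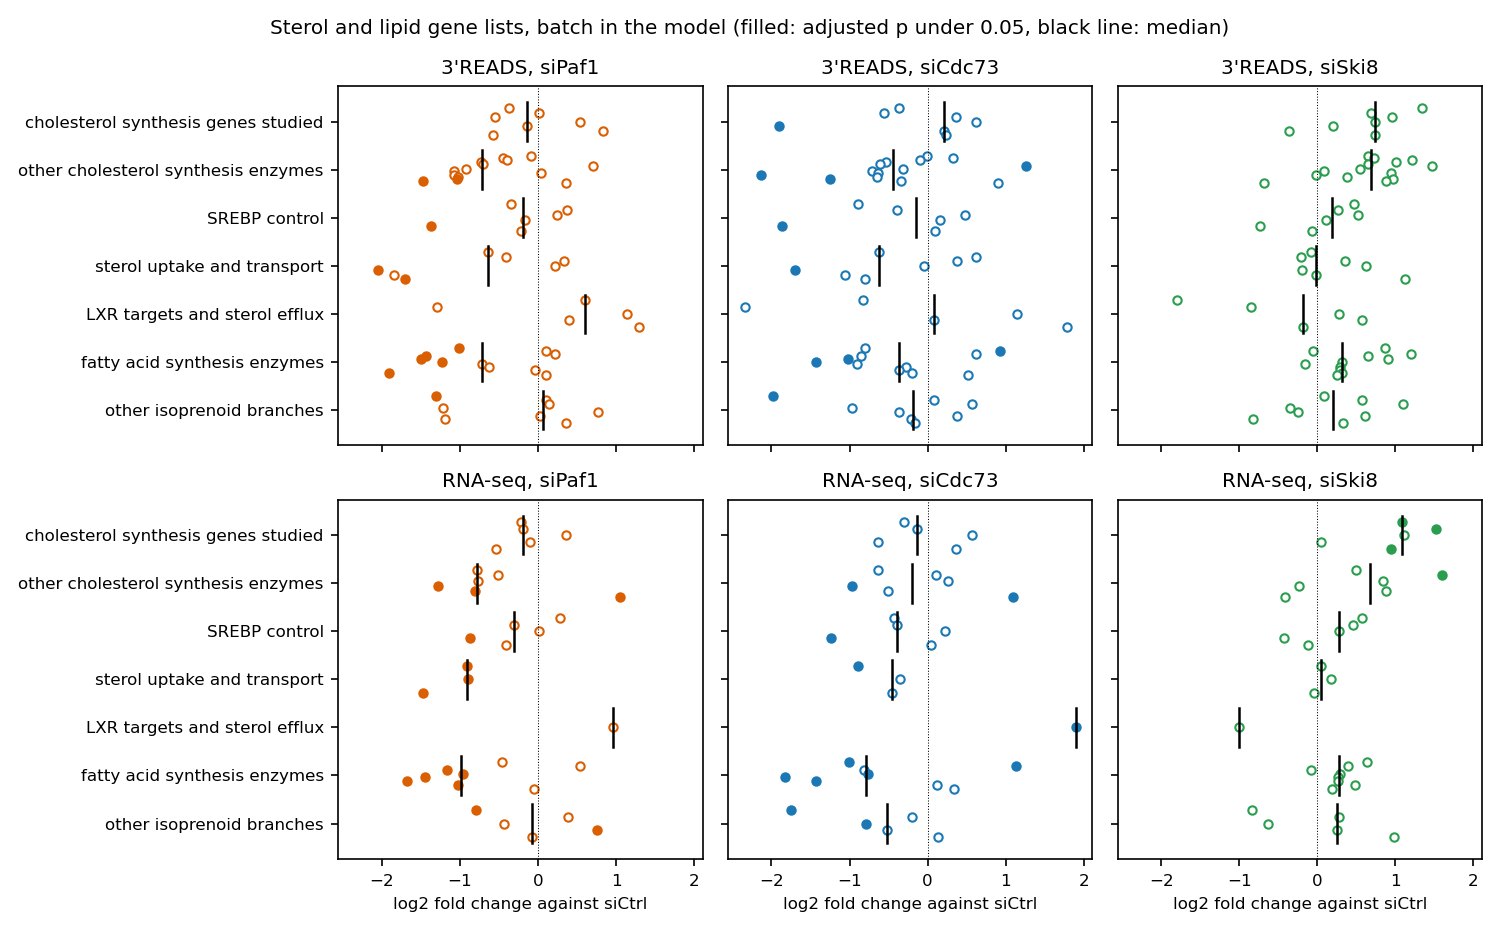
Log2 fold change against siCtrl with the block of every tested gene of the cholesterol synthesis genes and of 6 related lists, by knockdown and assay, with filled points for an adjusted p under 0.05 and a black line for the median of each list. In siSki8 the medians of the chosen genes lie at 0.74 in 3′READS and 1.08 in RNA-seq, and that of the 14 other enzymes at 0.69 in 3′READS.

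The genes whose levels followed the mean profile of the cholesterol synthesis genes most closely over the 7 libraries were taken from all genes with at least 10 CPM on average, as a description. In RNA-seq (5047 genes) they were Dcun1d5, Uba2, Me2, Asns and Fam3c, with Pearson correlations of 0.992, 0.992, 0.990, 0.980 and 0.977. In 3′READS (6721 genes) they were Cgrrf1, Tmcc1, Polr2j, Sf3a2 and Ywhab, with 0.983, 0.951, 0.947, 0.938 and 0.932. No gene was among the 5 in both assays. All 10 had their highest level in the siSki8 library. Their selection by the profile favored this, because that library also held the highest mean of the profile in both assays. The 7 points share batches and depth, and the cholesterol synthesis genes themselves correlated with their own mean at −0.43 (Mvk) to 0.904 (Fdft1) in 3′READS and 0.677 (Mvd) to 0.973 (Fdps) in RNA-seq.

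Promoters, from 250 bases before to 50 after the start in RefSeq (GRCm38.p6), could be matched for 5 of the 8 genes, Hmgcs1, Mvk, Mvd, Idi1 and Insig1. All 5 held the letters CCAAT on either strand, which 37.4% of 32851 promoters of the same length hold. The SRE letters TCACNCCAC, a form of the SREBP binding element, were found on either strand in Hmgcs1 and in 1.24% of all promoters. A match is a description of these letters and no evidence of binding, and the promoters of Fdps, Fdft1 and Sqle were not analysed here.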

How the data were processed

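C2C12 myoblasts were profiled by 3′READS and RNA-seq, 7 libraries each. The authors mapped reads with Bowtie2 to mm9 and deposited read counts per pA site (3′READS, from reads bearing untemplated tail bases) and read counts and RPKM per gene from coding regions (RNA-seq). The ChIP-seq samples of the series were not analysed here. Counts were summed over the sense-strand pA sites of a gene, or taken from the transcript with the most reads. Groups and batches came from the labels.

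Counts were tested with edgeR 4.0.16 (TMM, filterByExpr, quasi-likelihood) over all 7 libraries of an assay, with no batch term, and Benjamini-Hochberg adjusted over 12579 (3′READS) and 6521 (RNA-seq) genes at 0.05. The alternative with batch as a block followed from the labels, which give each number as a batch. Batch differences correlated between groups at r = 0.432 to 0.610 in 3′READS and 0.620 to 0.748 in RNA-seq, and the biological coefficient of variation was 0.515 without and 0.247 with the block in 3′READS, and 0.397 and 0.179 in RNA-seq. CDS-APA, 3′UTR-APA and single sites were tested as an interaction in edgeR, over genes that averaged 20 or more reads in a library and sites with at least 5% of the reads of a gene. Log2 values within a batch had 0.5 reads added. Alternatives were DESeq2 1.42.0, other scaling, no filter on low counts, other site or transcript sums, leaving out each library, and pooled reads with 1.4-fold and Fisher's exact p under 0.01. Models were checked on simulated data.

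The genes, lists and alternatives were chosen with earlier results of these data known. Named were the 8 genes, the knockdown targets, list and marker genes with an adjusted p under 0.05 with the block, and the 5 genes per assay most alike in profile. Some genes of the lists are not reported here by name.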

Additional observations from a re-analysis of the deposited data

Results flagged for a closer look

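The effects of the knockdowns differed from each other, by direct contrast in edgeR's quasi-likelihood test with the batch as a block, at 4 of the cholesterol synthesis genes. In RNA-seq, Sqle was lower in siPaf1 than in siCdc73 (log2 difference −0.9) and than in siSki8 (−1.48), Fdft1 was lower in siPaf1 (−1.3) and in siCdc73 (−1.38) than in siSki8, and Fdps was lower in siPaf1 (−1.71) and in siCdc73 (−1.65) than in siSki8. In 3′READS, Sqle was lower in siPaf1 than in siSki8 (−1.31) and Fdps was lower in siCdc73 than in siSki8 (−1.25). The ratio of upstream to last-exon reads of Mvk was lower in siPaf1 than in siSki8 (−4.35). The siSki8 side of 8 of these 9 contrasts is 1 library, and none of the 9 passed without the block.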

How the results depend on the processing

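The counts of called genes were 0 in every comparison without the block, and they remained 0 with RLE scaling, library size alone, no filter on low counts, DESeq2 and other site or transcript sums. With the replicate block the counts were 1 of 7 in 3′READS for siCdc73 and 3 of 5 in RNA-seq for siSki8, and it changed no other count of called genes. For siCdc73 in 3′READS the count with the block was 1 with RLE, library size alone, sites of at least 5% or DESeq2 (Insig1 in place of Mvd there), 2 with 3′-most exon sites, and 0 to 2 when a library was left out. For siPaf1 in 3′READS it was 1 with 3′-most exon sites (Mvk) and 0 to 1 when a library was left out. For siSki8 in RNA-seq it was 3 with RLE or DESeq2, 2 with summed transcripts, 1 with library size alone, and 1 to 4 when a library was left out (0 without the block). For siCdc73 in RNA-seq it was 1 with library size alone (Mvd, log2 change −0.81) and 0 to 2 when a library was left out, and for siPaf1 0 to 1. The rule of 1.4-fold and Fisher's test on pooled reads, which has no replicate error, called 2, 3 and 4 genes in 3′READS and 2, 2 and 4 in RNA-seq for siPaf1, siCdc73 and siSki8. Calls of single sites went from 0 to 2 for siPaf1 and siCdc73 with the replicate block, 0 to 2 when a library was left out, and 2 for siPaf1 with a mean of at least 5 reads. The 2 Mvk sites were tested only against each other, so their 2 calls with the block are 1 result.

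The Mvk ratio kept its sign under all alternatives. It ranged from −7.21 to −4.93 for siPaf1 and −5.75 to −3.45 for siCdc73 when a library was left out. The siPaf1 call was lost with no minimum share (−6.41), and siCdc73 gained a call with the replicate block (−4.61) and with a mean of at least 5 reads (−4.57).

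The median over the genes moved by more than its spread between batches as follows. For siCdc73 in 3′READS it was 0.18, and became 0.067 on pooled reads, 0.092 with library size alone, 0.30 with 3′-most exon sites (0.30 with the block also) and −0.40 to 0.35 when a library was left out. For siSki8 in 3′READS it was 0.71, and became 0.78 on pooled reads, 0.68 with DESeq2 or RLE, 0.81 with library size alone and 0.61 to 0.81 when a library was left out. For siPaf1 in 3′READS it was −0.40, and became −0.033 with library size alone and the block and −0.41 to 0.30 when a library was left out. In RNA-seq it became −0.42 on pooled reads, −0.29 with library size alone, −0.31 with that and the block, and −0.50 to 0.60 when a library was left out for siCdc73, and −0.45 to 0.079 for siPaf1.

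The sign of single genes that were not called was less stable. Fdps in siPaf1 in 3′READS went from −0.04 to 0.018 with the replicate block, 0.023 with sites of at least 5% and the block, 0.045 with RLE or DESeq2 and the block, 0.058 with 3′-most exon sites and the block, 0.081 with library size alone, 0.12 with that and the block, and 0.11 on pooled reads. Mvd in siSki8 in 3′READS went from −0.81 to 0.20 with the replicate block, and to 0.18 with DESeq2 or RLE, 0.21 with library size alone, 0.20 with sites of at least 5% and 0.19 with 3′-most exon sites, each with the block. Mvk in siSki8 went to 0.49 with 3′-most exon sites and 0.59 with the block also. Mvd in siSki8 in RNA-seq went from 0.17 to −0.16 on pooled reads, −0.16 with library size alone and −0.22 with that and the block.

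When a library was left out, with or without the block, the 3′READS changes ranged, for siPaf1, from −0.92 to 0.36 for Fdft1, −0.42 to 0.46 for Fdps, −2.80 to 1.54 for Idi1, −0.34 to 1.50 for Insig1 and −1.19 to 1.18 for Mvd. For siCdc73 they ranged from −0.88 to 0.40 for Fdft1, −2.07 to 2.50 for Idi1, −0.56 to 1.71 for Insig1 and −0.25 to 0.54 for Mvk, and for siSki8 from −0.075 to 0.81 for Fdps, −1.57 to 0.81 for Mvd and −0.75 to 0.042 for Mvk. In RNA-seq they ranged, for siPaf1, from −0.45 to 0.011 for Fdft1, −0.79 to 0.45 for Fdps, −0.32 to 0.93 for Insig1, −0.44 to 0.18 for Mvd and −1.07 to 0.079 for Sqle, for siCdc73 from −0.94 to 0.60 for Fdps and −0.16 to 1.01 for Sqle, and for siSki8 from −0.087 to 0.40 for Mvd. The 3′UTR-APA ratio ranged from −4.77 to 1.77 (Fdft1) and −2.01 to 0.82 (Idi1) for siCdc73, −0.73 to 2.08 and −1.67 to 2.83 for siPaf1, and −0.40 to 2.54 (Fdft1) for siSki8. The cause of these changes was not tested. A lone library left in a group was assumed to vary like the others. Depth limits Idi1, Fdft1, Mvd and the Mvk sites in 3′READS most.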
